A study of Mus musculus with 12 samples.

Results

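The genes of transforming growth factor beta (TGF-beta) signalling were followed in open chromatin of 3 sorted brain cell populations. The 10 genes were Tgfb1, Tgfb2, Tgfbr1, Tgfbr2, Smad2, Smad3, Smad4, Smad7, Ski and Skil. Every peak that the authors' tables assign to one of these genes was taken, without regard to its height or change, which gave 495 of 281974 peaks. Of these, 296 of 91770 lay in the microglia table, 94 of 107627 in the NeuN+ table and 105 of 82577 in the Olig2+ table. A peak belongs to the gene whose transcription start site is nearest, so some peaks assigned to a member lie inside a neighbouring gene.

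TGF-beta ligands are secreted in a latent form, and the released ligand joins a type II receptor (Tgfbr2) with a type I receptor (Tgfbr1). The type I receptor phosphorylates Smad2 and Smad3, which enter the nucleus with Smad4 and act on target genes. Smad7 blocks the receptor, and Ski and Skil (also called SnoN) are co-repressors that bind the Smad complex. Microglia, the resident macrophages of the brain, depend on TGF-beta to keep their adult identity.

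ATAC-seq, which measures how readily a transposase cuts chromatin, was run on forebrain of C57BL/6 mice aged 4 months, either wild type (WT) or lacking Sgsh (SgshKO). Sgsh encodes a lysosomal enzyme that breaks down heparan sulfate. Microglia were taken as living cells positive for CD11b and CX3CR1 and low in CD45. The NeuN+ (neuronal; negative for PU.1 and OLIG2) and Olig2+ (oligodendrocyte lineage; negative for PU.1 and NEUN) sorts used nuclei lightly fixed with formaldehyde, so cell type and preparation cannot be told apart. Each of the 6 groups had 2 libraries, and the labels do not say that these came from separate animals, so the p-values measure the spread between libraries only. The labels do not give the part of Sgsh that was altered.

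The libraries held 10771659 to 19555924 tags, and the share inside peaks was 48.7% to 67.4% in microglia, 21.2% to 26.7% in NeuN+ and 30.9% to 31.8% in Olig2+ libraries. Levels are tags in a peak after the authors' scaling of each library to 10000000 tags, where 1 read is worth 0.511 to 0.928 normalized tags. At the Sgsh start site the NeuN+ peak held 34.6 and 22.6 tags in WT against 9.07 and 13.3 in SgshKO nuclei. The microglia peak there held 184 and 162 tags against 257 and 260, and the Olig2+ peak 65.9 and 74.2 against 60.9 and 69.1. These values do not check a genotype whose lesion is not described. Start-site peaks were present for 9 of 10 microglia markers in microglia (Aif1 had none), 10 of 10 neuronal markers in NeuN+ and 10 of 10 oligodendrocyte lineage markers in Olig2+ nuclei, while both nuclei tables held 1 of 10 microglia markers. Markers of other cells also had start-site peaks: in microglia 6 of 10 oligodendrocyte lineage, 4 of 7 endothelial and 3 of 10 neuronal markers, in Olig2+ nuclei 5 of 10 neuronal and in NeuN+ nuclei 5 of 10 oligodendrocyte lineage markers.

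The promoter sequences show where the start-site peaks of the ligands and receptors lie. RefSeq windows of assembly GRCm38.p6 were found for 6 of the 10 members, and the 250 bases before the start site are printed for 4 of them, on the gene's strand. Capitals mark the motifs searched on both strands: CACGTG (the E-box read by MITF, TFEB and TFE3), TCACGTGA (which contains CACGTG), GAGGAAGT (PU.1), TGANTCA (AP-1), CAGACA (the core of the SMAD-binding element), TGACGTCA (CRE) and GGGCGG (SP/KLF).
Tgfb1 at chr7:25686752-25687001, plus strand: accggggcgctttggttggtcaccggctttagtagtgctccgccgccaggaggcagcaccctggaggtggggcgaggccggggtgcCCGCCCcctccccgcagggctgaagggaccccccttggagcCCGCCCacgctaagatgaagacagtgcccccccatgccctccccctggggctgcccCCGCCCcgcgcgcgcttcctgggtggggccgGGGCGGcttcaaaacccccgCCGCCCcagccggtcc
Tgfb2 at chr1:186705990-186706239, minus strand: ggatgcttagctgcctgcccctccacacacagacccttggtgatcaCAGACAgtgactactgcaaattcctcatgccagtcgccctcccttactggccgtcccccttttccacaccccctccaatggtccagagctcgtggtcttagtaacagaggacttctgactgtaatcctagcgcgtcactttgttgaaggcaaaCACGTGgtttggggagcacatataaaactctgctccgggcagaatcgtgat
Tgfbr1 at chr4:47352972-47353221, plus strand: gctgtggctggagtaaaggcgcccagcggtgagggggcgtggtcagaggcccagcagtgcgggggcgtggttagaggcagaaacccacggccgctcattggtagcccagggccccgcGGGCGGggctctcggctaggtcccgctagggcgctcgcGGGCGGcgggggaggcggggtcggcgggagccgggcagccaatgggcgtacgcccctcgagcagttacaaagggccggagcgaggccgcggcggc
Tgfbr2 at chr9:116175364-116175613, minus strand: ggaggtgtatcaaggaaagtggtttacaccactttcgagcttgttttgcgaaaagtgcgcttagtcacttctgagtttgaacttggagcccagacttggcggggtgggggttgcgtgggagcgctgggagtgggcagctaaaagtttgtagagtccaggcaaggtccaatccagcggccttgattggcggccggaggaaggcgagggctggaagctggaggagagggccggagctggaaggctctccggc

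The Tgfb1 window was 75.2% G or C, held 5 SP/KLF matches and lay almost wholly inside a microglia peak, which covered 246 of its 250 bases. No NeuN+ or Olig2+ peak touched it. The Tgfb2 window was 53.6% G or C and was the only one of the 4 with an E-box, 51 bases before the start site, and with a SMAD core, 204 bases before it. The Tgfbr1 window held 2 SP/KLF matches and was covered over 206 to 211 bases by a peak in each of the 3 tables. A second Tgfbr1 start site has its own window, not printed, with 1 SMAD core 203 bases before it. No peak of the 3 tables touched that second window. None of the 7 motifs was found in the Tgfbr2 window. Of all 32851 promoter windows in the table, 6.02% held CACGTG, 0.785% TCACGTGA, 2.44% GAGGAAGT, 6.75% TGANTCA, 17.1% CAGACA, 1.55% TGACGTCA and 32.7% GGGCGG. A match describes the letters of the window and is not a measured binding site.

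Most member peaks were found in microglia. Tgfbr2 had 48 peaks in microglia, 4 in NeuN+ and 1 in Olig2+ nuclei, and Tgfbr1 had 38, 7 and 3. Ski had the most peaks of any member in microglia and NeuN+ nuclei, with 85 and 23, against 27 in Olig2+ nuclei. Smad7 departed from that order, with 42 peaks in Olig2+, 36 in microglia and 11 in NeuN+ nuclei. Smad2 had 12 peaks in NeuN+ nuclei against 7 in microglia and 9 in Olig2+ nuclei. Smad3 had 44, 22 and 9 peaks and Skil 21, 7 and 5 in microglia, NeuN+ and Olig2+ nuclei. Tgfb1 had 5 microglia peaks, 2 NeuN+ peaks and none in the Olig2+ table. Tgfb2 and Smad4 had few, 7, 3 and 7 and 5, 3 and 2 in the same order.

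**Figure D1:**
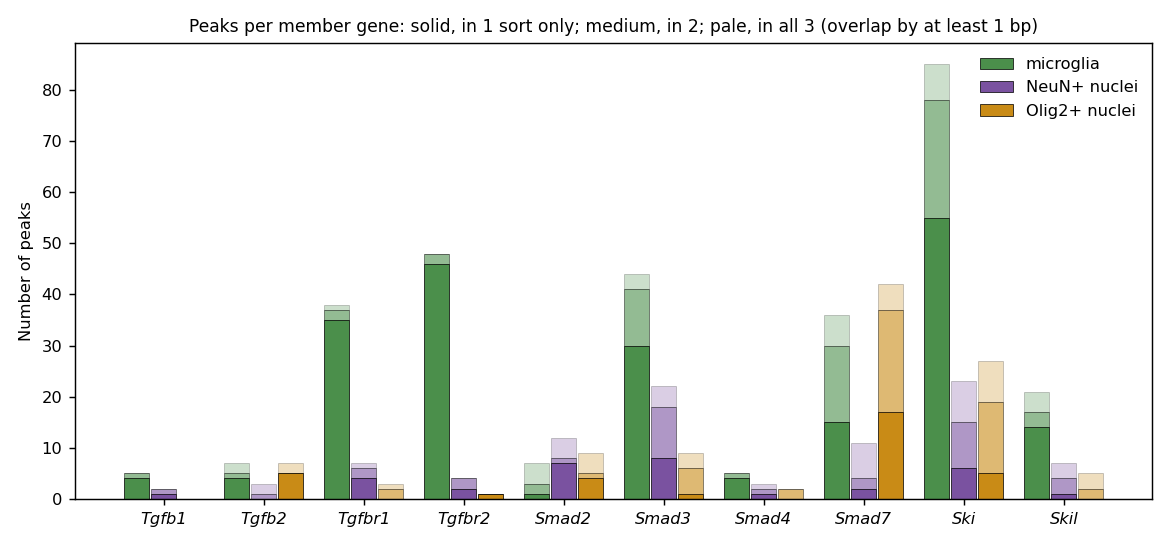
Number of peaks assigned to each member gene (bars, one colour per sorted population), divided by whether a peak overlaps peaks of the other tables by at least 1 bp. The microglia bars stand highest for Tgfbr1 (38), Tgfbr2 (48), Smad3 (44) and Ski (85), and the Olig2+ bar for Smad7 (42).

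Of the microglia member peaks, 70.3% overlapped no peak of the other tables, beside 60.2% of all microglia peaks. In the nuclei the members went the other way: 34.0% of their NeuN+ peaks and 31.4% of their Olig2+ peaks stood alone, beside 59.9% and 51.2% of all peaks. The receptors stood furthest apart, with 46 of 48 Tgfbr2 peaks and 35 of 38 Tgfbr1 peaks in microglia overlapping none in the nuclei. Peak sets were called per table, so these shares also move with depth and with the share of tags in peaks, whose part was not tested. Member peaks covered 76223 bp in microglia, 26327 bp in NeuN+ and 30357 bp in Olig2+ nuclei.

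Levels at start sites were compared per kb of peak, taking for each gene the strongest peak within 1000 bp of its start site. In WT microglia the highest was Skil, at 1947 and 2137 normalized tags per kb, followed by Tgfbr1 at 2199 and 1640 and Smad3 at 1934 and 1699, and the Tgfbr1 libraries overlapped those of both other genes. Tgfbr2 reached 861 and 640 per kb in WT microglia, 40.6 and 32.9 in WT NeuN+ nuclei, and had no start-site peak in Olig2+ nuclei. Tgfb1 reached 594 and 455 per kb in WT microglia and 49.1 and 25.8 in WT NeuN+ nuclei. These are different Tgfb1 peaks: the microglia peak lies at -126 bp, and the NeuN+ peak at 190 bp does not overlap it and is annotated to the end of B9d2, so no fold is given. The Tgfbr2 peaks overlap, and the WT mean per kb was 20.4 times as high in microglia as in NeuN+ nuclei, without overlap of libraries.

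Smad3 was 7.92 times as high in WT microglia as in Olig2+ nuclei, while its Olig2+ levels (237 and 221 per kb) and NeuN+ levels (231 and 215) overlapped. The per-kb levels of Tgfbr1 in Olig2+ nuclei (1632 and 1739) lay within the range of the microglia libraries, and both were above NeuN+ nuclei (427 and 393). Olig2+ nuclei led for Smad7, at 699 and 650 per kb against 393 and 401 in microglia and 138 and 148 in NeuN+ nuclei. For Ski and Smad2 the strongest peak lay at different sites, so matched peaks are given. At the matched Ski promoter peak (-608 bp in microglia) the WT means were 1913 per kb in Olig2+ nuclei, 839 in NeuN+ nuclei and 796 in microglia. At the matched Smad2 promoter peak (-394 bp in microglia) they were 1102 in microglia, 504 in Olig2+ and 351 in NeuN+ nuclei. Smad4 was low everywhere, between 34.5 and 78.3 per kb in the WT libraries, and its assigned start-site peaks are annotated to the promoter of the neighbouring gene 4930578L24Rik.

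**Figure D2:**
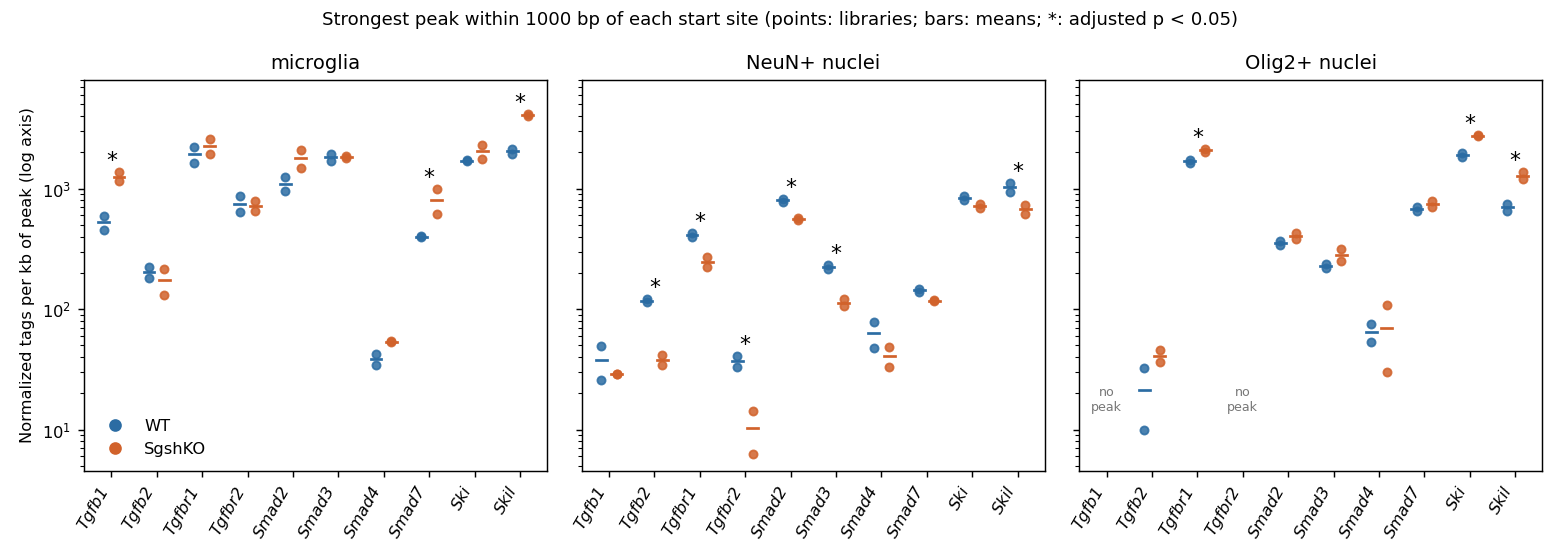
Normalized tags per kb (log axis) in the strongest peak within 1000 bp of each member's start site, with points for libraries, bars for means of 2 libraries and an asterisk where the limma adjusted p was under 0.05. In microglia the SgshKO points lie above WT for Tgfb1, Smad7 and Skil, and in Olig2+ nuclei for Tgfbr1, Ski and Skil.

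A test across populations was possible for peaks that matched one to one in all 3 tables by a reciprocal overlap of 50%. There were 16761 such peaks, among them 15 of 7 members, and 1 limma model of the 12 libraries compared them. In WT, 7 of the 15 were higher in microglia than in NeuN+ nuclei and none was lower, where 46.5% and 19.3% of all shared peaks were. Against Olig2+ nuclei, 9 were higher and 3 lower in microglia (42.7% and 24.5% of all shared peaks), and between the nuclei 4 were higher and 5 lower in NeuN+ (19.1% and 30.4%). The Smad3 start-site peak was higher in WT microglia than in NeuN+ nuclei by 3.25 ± 0.15 (log2, SE; limma adjusted p = 4.64e-14) and than in Olig2+ nuclei by 3.22 ± 0.15 (limma adjusted p = 7.39e-14). For the Tgfbr1 promoter peak, whose per-kb levels overlapped, tags per peak were higher in microglia than in Olig2+ nuclei by 0.39 ± 0.16 (limma adjusted p = 0.029). The Smad7 start-site peak was higher in Olig2+ than in NeuN+ nuclei, with a NeuN+ minus Olig2+ difference of -2.71 ± 0.18 (log2, SE; limma adjusted p = 2.79e-11). These tests use tags per peak, and a peak's width differed between tables. They also pool 1 spread over the 6 groups.

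In SgshKO microglia 3 of 3 start-site peaks of the inhibitor Skil rose, with 1 of 4 of Ski, the single one of Smad7 and 1 of 2 of the ligand Tgfb1, while 4 peaks of the receptor gene Tgfbr1 away from its main start site fell. In all, 14 of the 296 microglia member peaks were called higher and 5 lower at a limma adjusted p under 0.05 over the whole table. That was 6.42% of them, beside 7.37% of all microglia peaks called, 5.05% higher and 2.33% lower, so the number of calls did not stand out. Within 1000 bp of a start site, 6 of 23 member peaks were higher, where 8.59% of such peaks in the table were higher and 1.2% lower. None of the 23 was called lower by limma, by its unadjusted p under 0.05, by edgeR or by DESeq2. Quantile normalization did call 1 lower, at Smad3, and scaling by tags in peaks left 2 lower at an unadjusted limma p under 0.05. Ski and Skil gave 10 of the 14 higher calls, and Tgfbr1 gave 4 of the 5 lower ones.

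The median log2 change was -0.07 over the microglia member peaks and -0.08 over all microglia peaks. The balance of calls depended on scaling: dividing by tags in peaks moved the median of all microglia peaks from -0.08 to -0.28 and gave 15 higher and 28 lower member calls, and quantile normalization gave 12 and 18. Without WT replicate 1, 1 of the 19 calls was kept (Ski at 21526 bp) and without WT replicate 2 none, when 1159 and 557 peaks of the whole table passed. SgshKO replicate 1 had the highest share of tags in peaks, 67.4% against 53.7% in replicate 2, and leaving out SgshKO replicate 1 or 2 gave 47 and 56 member calls.

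**Figure D3:**
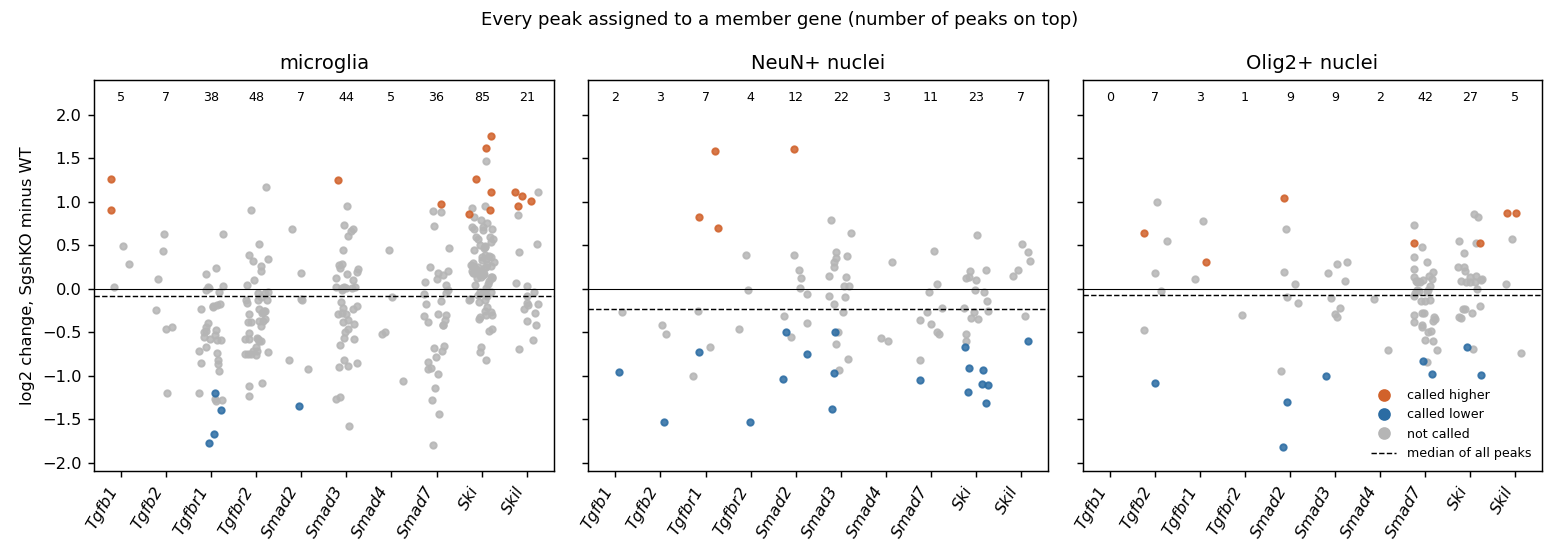
The log2 change (SgshKO minus WT) of every member peak by gene and population, with the number of peaks above each column and the median of all peaks of the table as a dashed line. Higher calls gather at Ski and Skil in microglia, and lower calls outnumber higher ones in NeuN+ nuclei, 19 to 4.

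Among the ligands, Tgfb1 rose and Tgfb2 gave no call. The Tgfb1 promoter peak at -126 bp (chr7:25686754-25686999, mm10), which covers the sequence printed for Tgfb1, held 146 and 112 normalized tags in WT and 284 and 335 in SgshKO microglia. Both SgshKO libraries were above both WT libraries, by a log2 change of 1.26 ± 0.28 (SE; limma adjusted p = 0.00286). A second peak in intron 1 of Tgfb1, at 2270 bp (chr7:25689158-25689387), held 164 and 184 tags in WT and 322 and 329 in SgshKO, a change of 0.90 ± 0.27 (limma adjusted p = 0.0296). The neighbouring peak at 343 bp, annotated to the end of the gene B9d2, held 52.7 and 64.4 tags in WT and 53.7 and 65.0 in SgshKO, so the groups overlapped there. The promoter peak kept its call under each scaling, edgeR and DESeq2, and the intronic one lost it under quantile normalization. The 7 Tgfb2 microglia peaks were low, and its 3 start-site peaks held 13.9 to 51.9 tags, with overlapping groups. No Tgfb2 peak was called by limma, edgeR or DESeq2, and 1 passed an unadjusted limma p of 0.05.

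The receptors differed from each other. The Tgfbr1 promoter peak at -64 bp (chr4:47353012-47353305) held 646 and 482 tags in WT and 565 and 764 in SgshKO microglia, with overlapping groups and a change of 0.24 ± 0.25 (limma adjusted p = 0.627). Away from it, 4 Tgfbr1 peaks fell, all of them microglia peaks that overlap none in the nuclei tables. An intergenic pair lay 31841 and 33196 bp downstream of a second annotated start site of Tgfbr1, since the files measure distance to the nearest start site. The first (chr4:47417903-47418212) held 31.1 and 27.96 tags in WT and 9.52 and 6.50 in SgshKO, a change of -1.78 ± 0.46 (limma adjusted p = 0.012). The second (chr4:47419290-47419534) held 64.8 and 62.7 tags in WT and 24.2 and 23.2 in SgshKO, a change of -1.39 ± 0.37 (limma adjusted p = 0.0148).

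Inside the Tgfbr1 gene, an intron 3 peak at 12244 bp (chr4:47398332-47398588) held 111 and 61.0 tags in WT and 36.4 and 34.4 in SgshKO microglia, and an intron 1 peak at 9607 bp held 14.7 and 15.2 against 4.33 and 3.71. Of all 38 Tgfbr1 peaks 32 had a negative change, with a median of -0.54, and 12 of these passed an unadjusted limma p of 0.05. The number called lower was 13 with scaling by tags in peaks, 7 by median of ratios, 9 by quantiles, 8 by edgeR and 2 by DESeq2, and the direction of the calls was the same in each. Tgfbr2 gave no call among 48 peaks. Its start-site peak at 57 bp (chr9:116175159-116175453) held 254 and 189 tags in WT and 191 and 232 in SgshKO, a change of -0.06 ± 0.27, whose sign changed with the scaling. The median over the Tgfbr2 peaks was -0.32, with 38 of 48 changes negative and 5 unadjusted limma p under 0.05. Other settings did call Tgfbr2 peaks: edgeR and median of ratios each gave 1 higher and 1 lower. Scaling by tags in peaks gave 1 higher and 3 lower, and quantiles and the replicate block each 1 and 2. DESeq2 called no Tgfbr2 peak. Over all 91770 microglia peaks the median was -0.08, and 20157 had an unadjusted limma p under 0.05 in either direction. Of all 296 microglia member peaks 60 did.

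Of the signal-carrying Smads, limma called no start-site peak in microglia, and 1 passed its unadjusted p of 0.05. DESeq2 called none, edgeR called 1 Smad2 start-site peak higher, as did limma without SgshKO replicate 1, and quantile normalization gave 1 lower Smad3 start-site peak. The Smad3 promoter peak at -233 bp held 652 and 573 tags in WT and 623 and 601 in SgshKO, a change of 0.00 ± 0.24 (limma adjusted p = 0.997). The Smad2 promoter peak at -394 bp held 254 and 193 tags in WT and 302 and 421 in SgshKO, without overlap, and its change of 0.69 ± 0.27 did not pass (limma adjusted p = 0.115). A Smad2-assigned intergenic peak 116441 bp downstream fell, from 66.5 and 60.2 tags in WT to 30.3 and 19.5 in SgshKO, a change of -1.34 ± 0.37 (limma adjusted p = 0.0209). An intergenic peak at -92454 bp from Smad3 (chr9:63850303-63850593) rose from 36.3 and 20.3 tags to 64.1 and 67.8, a change of 1.25 ± 0.37 (limma adjusted p = 0.0323). Smad4 had 5 peaks, of which none was called by limma, edgeR or DESeq2 or passed an unadjusted limma p of 0.05, while 3 were called lower by limma without SgshKO replicate 1.

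The inhibitors held 142 of the 296 microglia member peaks. Of these 142 peaks 11 were called higher, where 5.05% of all microglia peaks were higher, and the members gave 14 higher calls in all. Skil, the Ski relative that is itself a TGF-beta target gene, had all 3 of its start-site peaks called higher, and a 4th at -1301 bp. At -402 bp (chr3:31094512-31094800) the tags were 563 and 618 in WT against 1167 and 1199 in SgshKO, a change of 1.00 ± 0.23 (limma adjusted p = 0.00478). At -22 bp (chr3:31094917-31095155) WT libraries held 263 and 238 tags against 483 and 564 in SgshKO libraries, a change of 1.06 ± 0.25 (limma adjusted p = 0.00661). The peak at 746 bp in intron 1 held 314 and 321 against 635 and 596, and the one at -1301 bp held 124 and 110 against 227 and 285. The SgshKO libraries of each of these Skil peaks were all above the WT libraries. Skil peaks further out did not follow: the median over its 18 peaks away from the start site was -0.13, and of the 3 start-site calls quantile normalization kept only that at -22 bp.

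Ski had 6 peaks called higher of 85, that is 7.06% beside 5.05% of all microglia peaks. The peak with the smallest p, at 21526 bp in intron 1 (chr4:155200891-155201128), held 621 and 513 tags in WT and 1712 and 1063 in SgshKO microglia, a change of 1.25 ± 0.24 (limma adjusted p = 0.000899). A strong intron 1 peak at 5015 bp (chr4:155217415-155217626) held 1045 and 896 tags in WT and 2380 and 1287 in SgshKO, so SgshKO replicate 1 was far above replicate 2. Another intron 1 peak at 59529 bp showed the same spread, with 242 and 198 tags against 617 and 366. At the promoter, the peak at -608 bp held 219 and 192 tags in WT and 390 and 380 in SgshKO, a change of 0.91 ± 0.26 (limma adjusted p = 0.0255). The Ski calls at -608 and 5015 bp were lost under quantile normalization, and that at 5015 bp also without SgshKO replicate 1. The adjoining and higher peak at -901 bp held 400 and 389 against 532 and 407 and did not pass, with a change of 0.24 ± 0.25.

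The remaining 2 Ski calls, at 37672 and 53653 bp, were low, with 3.46 to 11.9 tags in WT and 13.9 to 41.6 in SgshKO. Of the 85 Ski changes 63 were positive and the median was 0.24, beside -0.08 over all microglia peaks. No Ski peak was called lower by limma, edgeR or DESeq2 or passed an unadjusted limma p of 0.05 in that direction. Without SgshKO replicate 1, 5 Ski peaks were higher and 3 lower, and without SgshKO replicate 2, 21 were higher. Smad7, the receptor-blocking Smad, rose at its promoter peak at -65 bp, from 147 and 150 tags in WT to 231 and 368 in SgshKO, a change of 0.97 ± 0.28 (limma adjusted p = 0.0265). Its other 35 peaks had a median of -0.30 and gave no call, although 9 of the 36 Smad7 peaks were lower at an unadjusted limma p under 0.05. Over all 91770 microglia peaks, 20157 passed that p in either direction. By edgeR 3 Smad7 peaks were called lower and, beside the promoter peak, 1 higher, and DESeq2 called none. The Smad7 promoter call was lost with scaling by tags in peaks, with quantiles and with DESeq2.

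**Figure D4:**
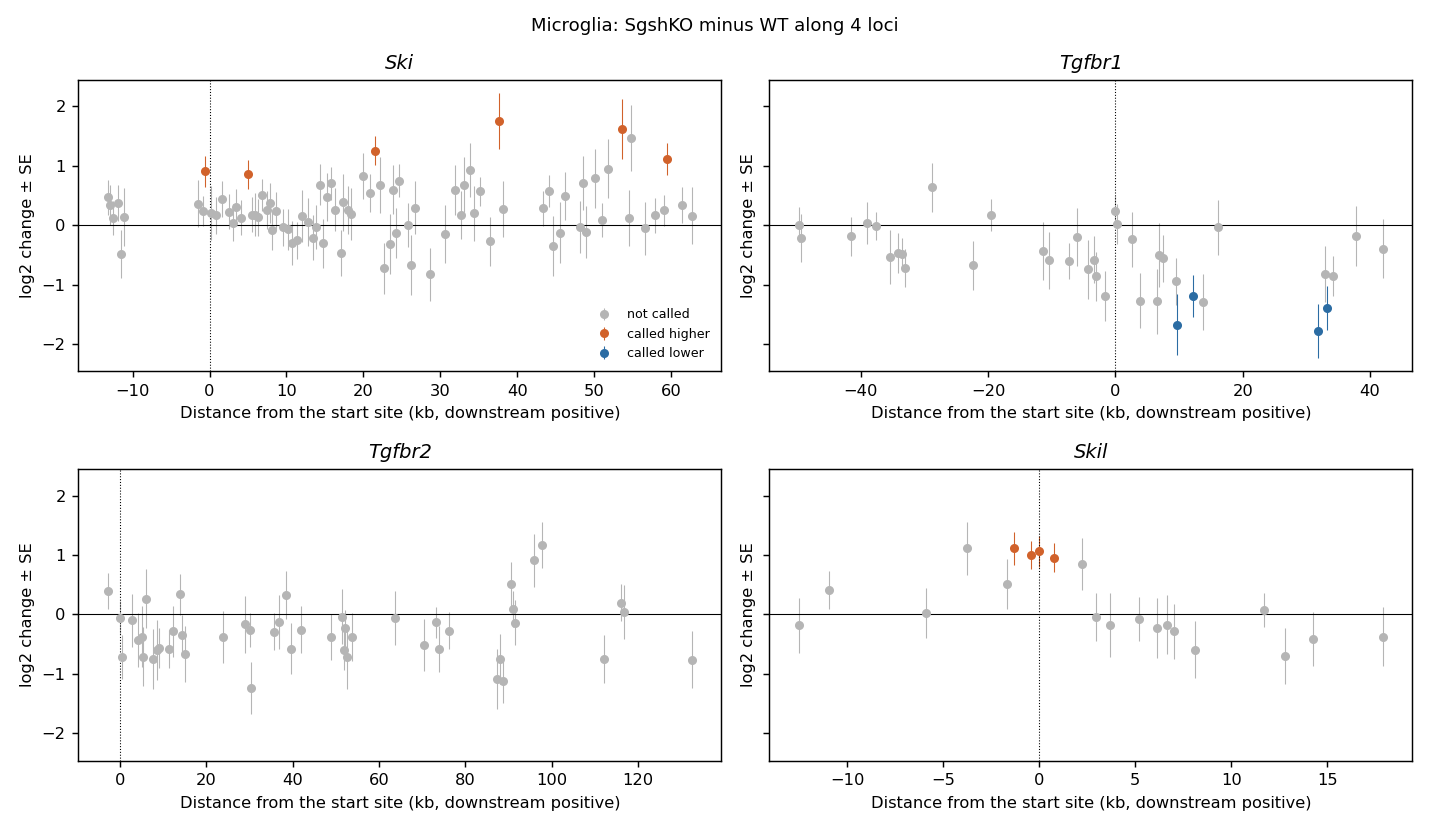
The log2 change (± SE) in microglia of every peak of Ski, Tgfbr1, Tgfbr2 and Skil against its distance in kb from the nearest annotated start site of the gene. Skil calls gather at the start site, the 6 Ski calls spread over the promoter and intron 1, and the 4 Tgfbr1 calls lie 9607 to 33196 bp downstream of a start site.

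In the microglia libraries the summed start-site tags of blood myeloid and border macrophage markers were 53.4 and 59.6 in WT against 65.0 and 91.8 in SgshKO, with peaks for 3 of 9 genes and none at Ccr2, Ly6c2, S100a9, Lyve1, Cd163 and F13a1. The sums of the 9 microglia markers with a peak overlapped, at 2090 and 2395 in WT against 2065 and 2699 in SgshKO libraries. As a share of tags in peaks they did not overlap and were lower in SgshKO. That share was 0.0429% and 0.0430% in WT against 0.0385% and 0.0400% in SgshKO libraries. The part of other myeloid cells in the member changes was not tested. In sorted bulk samples, fewer cells with an open site and less opening per cell cannot be told apart.

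In SgshKO NeuN+ nuclei the member peaks fell as the table as a whole did. There, 19 of 94 member peaks were called lower and 4 higher, which is 24.5% of them, where 29.8% of all NeuN+ peaks were called, 19.6% lower and 10.2% higher. Of the 20 start-site peaks 9 were lower and 1 higher, where 44.9% of all NeuN+ start-site peaks were lower and 1.74% higher. The median change was -0.26 over the members and -0.23 over all peaks. The SgshKO NeuN+ libraries had 21.5% and 21.2% of tags in peaks against 26.7% and 25.9% in WT, and scaling by tags in peaks moved the median of all peaks to 0.05 and the member calls to 8 higher and 9 lower. Median-of-ratios scaling gave 6 and 12, quantiles 4 and 6, edgeR 7 and 12 and DESeq2 2 and 0. Without SgshKO replicate 1 or 2 no peak of the table passed limma, although 33265 and 32556 had an unadjusted p under 0.05, and without WT replicate 1 or 2 the member calls were 8 and 14.

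Neuronal marker tags moved the same way, at 1104 and 1002 in WT against 581 and 604 in SgshKO NeuN+ nuclei over 10 of 10 genes, and those of 5 oligodendrocyte lineage genes were 200 and 175 against 97.0 and 105. Their part in the member changes was not tested.

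At the ligands, the NeuN+ peak of Tgfb2 at 632 bp (chr1:186705236-186705479) held 29.5 and 27.7 tags in WT and 8.38 and 10.2 in SgshKO, a change of -1.53 ± 0.25 (limma adjusted p = 0.000309). It kept its call under each scaling, and without WT replicate 1 or 2, but not by DESeq2. The Tgfb1 peak at -621 bp was low, 9.63 and 9.04 against 4.19 and 4.44 tags, and lost its call under each scaling. The receptor Tgfbr1 moved in both directions within its promoter. The main NeuN+ peak at -109 bp (chr4:47353008-47353218), inside the Tgfbr1 sequence printed, fell from 90.1 and 83.0 tags to 46.8 and 57.1, a change of -0.73 ± 0.15 (limma adjusted p = 0.00176), a call lost under quantile normalization and without WT replicate 1. The weak peak at -979 bp (chr4:47352116-47352370), seen only in the NeuN+ table, rose from 7.93 and 9.04 tags to 29.3 and 25.4, a change of 1.58 ± 0.26 (limma adjusted p = 0.000287). That rise was also called under each scaling, by edgeR and by DESeq2, and was 1 of 2 member calls that DESeq2 made in NeuN+ nuclei.

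A further 2 NeuN+ peaks assigned to Tgfbr1 were higher, at -71142 and -40364 bp, and both lie inside the neighbouring collagen gene Col15a1. The Tgfbr2 start-site peak at 104 bp was near the limit of depth, with 16 and 13 reads in WT and 2 and 5 in SgshKO, a change of -1.53 ± 0.40 (limma adjusted p = 0.00891). At Smad2, the main NeuN+ promoter peak at 24 bp held 272 and 252 tags in WT and 182 and 189 in SgshKO, a change of -0.50 ± 0.09 (limma adjusted p = 0.000444), a call that scaling by tags in peaks lost and quantile normalization turned in sign. The distal Smad2 peak that fell in microglia also fell here, from 55.5 and 50.3 tags to 23.7 and 26.7, a change of -1.04 ± 0.19 (limma adjusted p = 0.000576), and kept its call under each scaling. A peak 165060 bp downstream of Smad2 rose from 3.97 and 5.65 tags to 13.3 and 20.3, with calls under each scaling and by DESeq2. The Smad3 promoter peak at -177 bp fell from 65.7 and 61.0 tags to 34.2 and 29.8, a change of -0.96 ± 0.17 (limma adjusted p = 0.000546), also under each scaling.

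Among the inhibitors in NeuN+ nuclei, Skil at -209 bp (chr3:31094722-31094976) fell from 285 and 239 tags to 188 and 157, a change of -0.60 ± 0.10 (limma adjusted p = 0.000435), and lost its call under quantile normalization. Of 23 Ski peaks 7 were lower, 5 of them under 16 tags in every library. Scaling by tags in peaks gave 1 lower Ski call. The Ski promoter peak at -683 bp held 250 and 234 tags against 217 and 199 and did not pass (limma adjusted p = 0.0645). The Smad7 promoter peak at -130 bp held 30.0 and 32.2 tags against 25.8 and 25.4, and only its peak at 11504 bp was called, lower, which each other scaling lost.

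In Olig2+ nuclei the libraries had nearly equal shares of tags in peaks, and 7 of 105 member peaks were called higher and 8 lower. That was 14.3% of them, where 19.8% of all Olig2+ peaks were called, 8.17% higher and 11.7% lower. The median change was -0.01 over the members and -0.07 over all peaks. Of 16 start-site peaks 4 were higher, where 12.7% of all start-site peaks were higher and 7.56% lower, and none was lower by limma, by its unadjusted p under 0.05, by edgeR or by DESeq2. Quantile normalization gave 10 higher and 6 lower member calls, and DESeq2 made 5 calls in all. The summed tags of 10 oligodendrocyte lineage markers were 3586 and 3547 in WT against 2945 and 2941 in SgshKO, those of the 1 microglia marker with a peak were 94.9 and 87.95 against 116 and 134, and those of 1 endothelial marker 3.63 and 2.56 against 8.61 and 10.6. Their part in the member changes was not tested. Without WT replicate 1 or 2 there were 8 calls each.

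The 4 rises at start sites were in the inhibitors and in Tgfbr1. Skil at -201 bp (chr3:31094701-31095014) held 205 and 235 tags in WT and 374 and 431 in SgshKO, a change of 0.87 ± 0.08 (limma adjusted p = 1.05e-08), and the smaller Skil peak at -870 bp held 21.3 and 21.99 against 37.5 and 43.2. Ski at -658 bp (chr4:155223091-155223296) held 408 and 380 tags in WT and 564 and 571 in SgshKO, a change of 0.53 ± 0.06 (limma adjusted p = 4.9e-07). Tgfbr1 at -81 bp (chr4:47353016-47353267) held 411 and 438 tags in WT and 508 and 538 in SgshKO, a change of 0.30 ± 0.06 (limma adjusted p = 0.00121). The calls at Skil -201 bp, Ski -658 bp and Tgfbr1 -81 bp held in all 13 alternatives, leaving out any library included.

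Smad7, the member with the most Olig2+ peaks, had called peaks inside the gene and none at its start site. Limma called 3 of its 42 peaks, that is 7.14%, where 19.8% of all Olig2+ peaks were called. The peak at 4220 bp in intron 2 held 140 and 94.6 tags in WT and 56.0 and 59.8 in SgshKO, a change of -0.98 ± 0.15 (limma adjusted p = 3.41e-05). The peak at 16124 bp held 93.4 and 87.4 against 47.3 and 53.8, a change of -0.83 ± 0.15 (limma adjusted p = 0.000211). Both held in all 13 alternatives. The Smad7 promoter peak at -66 bp held 217 and 201 tags in WT and 220 and 243 in SgshKO, without overlap, a change of 0.14 ± 0.09 (limma adjusted p = 0.269). Of the other 39 Smad7 peaks 1 was called, a higher peak 67658 bp downstream that lies in the 3′ UTR of Ctif.

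Tgfb2 changed in both directions within intron 1 in Olig2+ nuclei: the peak at 23195 bp rose from 39.9 and 44.5 tags to 67.0 and 65.8 (0.64 ± 0.16, limma adjusted p = 0.0063) and the one at 25756 bp fell from 11.4 and 19.4 to 7.99 and 5.32 (-1.08 ± 0.33, limma adjusted p = 0.0218). Ski had 2 peaks lower, at -11544 and 32720 bp, the second from 39.9 and 30.7 tags to 18.4 and 15.9. Smad3 had 1 lower intron 1 peak at 14982 bp, from 27.5 and 23.01 to 8.61 and 16.6. Smad2 had no called start-site peak, 2 lower distal peaks under 10 tags in each library, and 1 higher peak at -5295 bp. The single Tgfbr2 peak and the 2 Smad4 peaks were called neither by limma nor by edgeR or DESeq2, and 1 Smad4 peak passed an unadjusted limma p of 0.05.

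The difference between populations in the response to Sgsh loss was tested on the 15 shared member peaks. The change in microglia exceeded that in NeuN+ nuclei at 6 of them and fell short at none, where 40.8% and 1.68% of all shared peaks did so. Between microglia and Olig2+ nuclei 2 were higher and 1 lower (17.6% and 3.99% of all shared peaks), and between NeuN+ and Olig2+ nuclei none was higher and 6 lower (0.913% and 30.8%). The first and the last of these contrasts share the NeuN+ libraries. Scaling by the summed tags of shared peaks gave 3 calls in place of 6 for microglia against NeuN+ nuclei and 2 in place of 6 for NeuN+ against Olig2+ nuclei. For microglia against Olig2+ nuclei, leaving out Olig2+ WT replicate 1, WT replicate 2 or SgshKO replicate 1 gave 1 call each in place of 3.

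The Smad7 promoter peak changed more in microglia than in NeuN+ nuclei, by 1.24 ± 0.25 (log2, SE; limma adjusted p = 0.000288), and more than in Olig2+ nuclei, by 0.83 ± 0.25 (limma adjusted p = 0.0198). The Smad2 peak at -394 bp did the same, by 1.44 ± 0.24 (limma adjusted p = 2.7e-05) and 0.78 ± 0.24 (limma adjusted p = 0.0198). The model pools 1 spread over the 6 groups, although the replicates of SgshKO microglia differed most. Their chi-square per degree of freedom was 6.44, against 1.16 to 1.82 in the other groups. With microglia fitted alone, the change had an SE of 0.28 at Smad7 and 0.27 at Smad2. Both exceed the SEs of the differences, which may therefore be too small. The distal Smad2 peak at 116441 bp went the other way: it held 19.5 and 30.3 tags in SgshKO microglia against 60.2 and 66.5 in WT, and its change in microglia minus that in Olig2+ nuclei was -1.40 ± 0.36 (limma adjusted p = 0.0066). Its change in NeuN+ nuclei differed from that in Olig2+ nuclei by -1.09 ± 0.36 (limma adjusted p = 0.0235) and from that in microglia by a difference that did not pass (limma adjusted p = 0.54). The Ski promoter peak at -608 bp changed more in microglia than in NeuN+ nuclei, by 1.12 ± 0.17 (limma adjusted p = 1.01e-05), and its difference between microglia and Olig2+ nuclei, 0.38 ± 0.17, did not pass (limma adjusted p = 0.122). The Skil start-site peaks had no one-to-one match in the 3 tables, so their responses were not compared between populations.

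**Figure D5:**
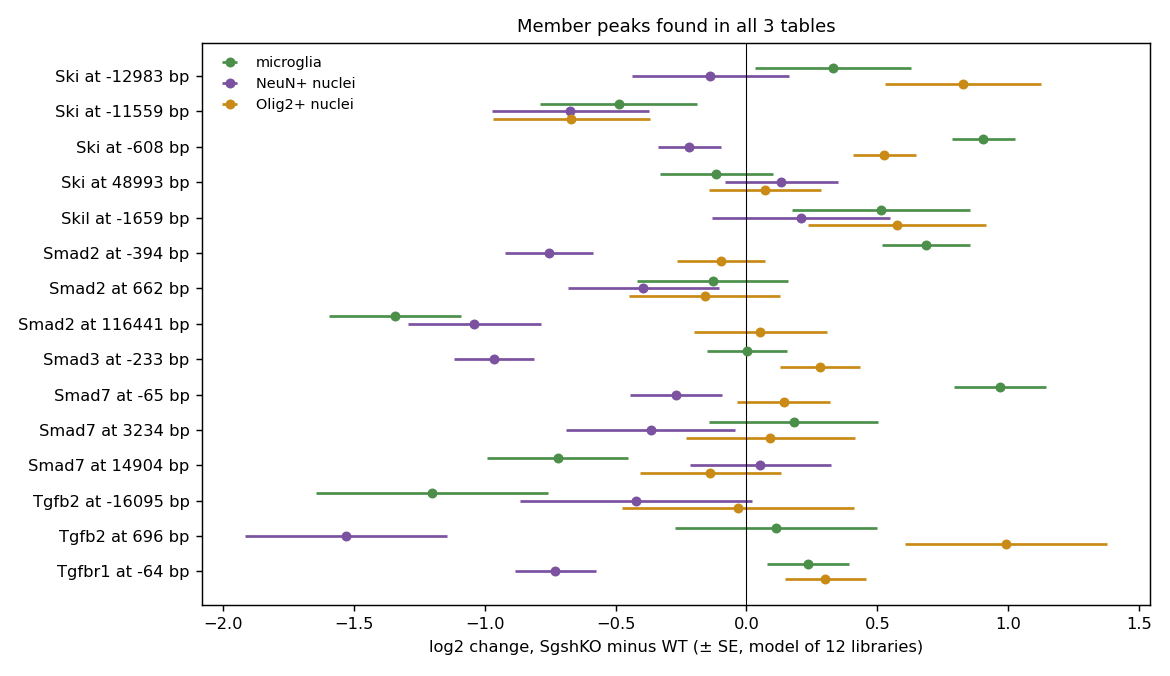
The log2 change (SgshKO minus WT, ± SE) of the 15 member peaks found in all 3 tables, from the model of 12 libraries, by gene and distance of the microglia peak from the start site. At Smad7 -65 bp and Smad2 -394 bp the microglia change (0.97 and 0.69) lies to the right of both nuclei sorts, and at Smad2 116441 bp microglia (-1.34) and NeuN+ nuclei (-1.04) lie to the left of Olig2+ nuclei (0.05).

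The wider pathway was read from a list of 63 genes outside the members. In microglia 18 of its 782 peaks were higher and 45 lower, that is 8.06% called beside 7.37% of all microglia peaks (5.05% higher, 2.33% lower), with a median of -0.25 beside -0.08, and without WT replicate 1 or 2 the calls numbered 5 and 1. Scaling by tags in peaks gave 19 higher and 152 lower calls, median of ratios 43 and 64, edgeR 48 and 85 and DESeq2 21 and 11. Of the 45 lower calls 27 came from 12 microglia identity genes, which had 2 higher calls among 272 peaks and a median of -0.55. Cx3cr1, the fractalkine receptor, gave 5 of the lower calls, and Sall1, a transcription factor of the microglia programme, gave 4. The 9 target genes went the other way, with 9 higher and 4 lower of 92 peaks. Among them, 4 of 10 Id3 peaks and 3 of 11 Cdkn1a peaks were higher and 1 Id3 peak lower. The higher call with the smallest p was in an intron of Acvrl1, an alternative type I receptor, from 14.7 and 20.3 tags to 165 and 155 (3.14 ± 0.35, limma adjusted p = 1.39e-07). Of the 16 Acvrl1 peaks 1 was called higher and 2 lower.

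In NeuN+ nuclei 49 of the 441 pathway peaks were higher and 90 lower, that is 31.5% called beside 29.8% of all NeuN+ peaks (10.2% higher, 19.6% lower), with a median of -0.21 beside -0.23. That balance turned with the scaling: tags in peaks gave 84 higher and 36 lower calls, median of ratios 71 and 45, quantiles 40 and 23, and edgeR 73 and 50. By DESeq2 it did not turn, with 3 higher and 5 lower. The promoter of Klf10, an early TGF-beta response gene, fell from 306 and 282 tags to 117 and 133 (-1.23 ± 0.10, limma adjusted p = 3.02e-07). That of Bambi, a decoy receptor, fell from 270 and 274 to 149 and 141 (-0.91 ± 0.09, limma adjusted p = 2.29e-06). Of the 5 Bambi peaks in NeuN+ nuclei 2 were called higher and 1 lower. Without WT replicate 1 or 2 the pathway calls in NeuN+ nuclei numbered 38 and 57, and without either SgshKO replicate there were none. In Olig2+ nuclei higher calls outnumbered lower ones, with 63 of 362 peaks higher and 22 lower, that is 23.5% called beside 19.8% of all Olig2+ peaks (8.17% higher, 11.7% lower), and a median of 0.08 beside -0.07. The Smads and adaptors of the list gave 20 higher and 5 lower of 71 peaks, led by Smad5 with 11 of 23 and the inhibitory Smad6 with 7 of 22. An intronic peak of Klf10 rose from 207 and 194 tags to 384 and 376 (0.92 ± 0.08, limma adjusted p = 1.25e-09). Without WT replicate 1 or 2 the Olig2+ pathway calls numbered 38 and 39.

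Among 8426 genes with a start-site peak shared by the 3 tables, those whose log2 tags were most alike over the 12 libraries were named for each member. They were Pcgf2 (r = 0.970) and Tbc1d30 (r = 0.954) for Tgfb2, Elf2 and Zfp36l2 (both r = 0.993) for Tgfbr1, and Itpkc (r = 0.989) and Tfe3 (r = 0.988) for Smad2. For Smad3 they were Fbxo4 (r = 0.995) and Zc3h7a (r = 0.993), for Smad7 Cd82 (r = 0.995) and Stk17b (r = 0.988), and for Ski Nudt9 (r = 0.986) and Zbtb44 (r = 0.981). The 12 libraries fall into 3 populations with their own depth and preparation, which the points of each r share.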

How the data were processed

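ATAC-seq was measured in 12 libraries, 2 per genotype in microglia, NeuN+ and Olig2+ nuclei. Per the submitters' processing notes, Bowtie2, HOMER and mm10 were used; peak calling, read shifting and duplicate handling are not stated in those sources. Each deposited signal value counts tags in a peak and, per the file headers, was scaled to 10000000 tags per library, and each table holds 1 peak set for its 4 libraries. Dividing out that scaling gave whole reads for 100% of values within 0.01 reads.

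Within each table, SgshKO minus WT was tested on log2(tags + 1) by limma 3.58.1 under R 4.3.3 (lmFit, eBayes with trend, two-sided, no covariate, no filter), with Benjamini-Hochberg adjustment over all peaks and calls under 0.05. Changes are on the log2(tags + 1) scale, which understates those of low peaks. Peaks matched one to one by 50% reciprocal overlap in the 3 tables entered 1 model of 12 libraries. Other settings tried were a pseudocount of 0.5 or 5, a filter that drops the lowest 25% of peaks, scaling by tags in peaks, median-of-ratios scaling, quantile normalization, edgeR 4.0.16 and DESeq2 1.42.0 on the recovered reads, a replicate block, 25% overlap and leaving out each library, which in an arm of 1 assumes that the lone library varies like the others. The fits were tested on simulated data. Start-site peaks lay within 1000 bp of a transcription start site.

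The members and lists were chosen with earlier results of these data known. Named were, per member and table, the peak nearest the start site within 1000 bp, the called peak with the smallest p in each direction, or otherwise that with the smallest p. Also named, per contrast of genotype effects, was the called shared peak with the smallest p, and for the pathway list up to 3 called peaks per direction, of which some are not reported here. The other called peaks of the members, the strongest start-site peaks and the counts of Cx3cr1, Sall1, Id3, Cdkn1a, Smad5 and Smad6 were chosen after their values were seen. Replicate pairs differed by more than sampling noise (chi-square per degree of freedom 1.16 to 6.44), and same-numbered libraries did not deviate together (r = 0.042, 0.0036 and 0.00069 in microglia, NeuN+ and Olig2+). PCR reads without molecular identifiers are not independent molecules.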

Additional observations from a re-analysis of the deposited data

Results flagged for a closer look

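The response to Sgsh loss differed between populations at 7 shared member peaks, by the interaction terms of the 12-library limma model (adjusted p under 0.05). That model pools 1 spread over the 6 groups, although replicates differed most in SgshKO microglia. Over all shared peaks 40.8% were higher for microglia minus NeuN+ nuclei and 30.8% lower for NeuN+ minus Olig2+ nuclei, each beside 6 of 15 member peaks. The median difference over all shared peaks was 0.605 for microglia minus NeuN+, 0.166 for microglia minus Olig2+ and -0.499 for NeuN+ minus Olig2+ nuclei. Over the 15 member peaks it was 0.470, -0.0657 and -0.458. At the start sites, the change in microglia minus that in NeuN+ nuclei was 1.12 at Ski -608 bp, 1.44 at Smad2 -394 bp, 0.967 at Smad3 -233 bp, 1.24 at Smad7 -65 bp, 1.64 at Tgfb2 696 bp and 0.966 at Tgfbr1 -64 bp on the log2 scale. The change in microglia minus that in Olig2+ nuclei was 0.783 at Smad2 -394 bp, 0.827 at Smad7 -65 bp and -1.4 at the distal Smad2 peak (116441 bp). The change in NeuN+ minus that in Olig2+ nuclei was -0.745 at Ski -608 bp, -0.658 at Smad2 -394 bp, -1.09 at Smad2 116441 bp, -1.25 at Smad3 -233 bp, -2.52 at Tgfb2 696 bp and -1.03 at Tgfbr1 -64 bp. Tags in peaks fell in the SgshKO NeuN+ libraries beside these differences, and the part of that fall was not tested peak by peak. The Olig2+ peak behind the Tgfb2 difference of -2.52 was low, with 16 and 5 reads in WT and 19 and 14 in SgshKO. Its own change in Olig2+ nuclei was not called (limma adjusted p = 0.0703).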

How the results depend on the processing

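In microglia the 19 member calls became 43 with scaling by tags in peaks, 33 with median of ratios, 30 with quantiles, 40 with edgeR, 44 with the replicate block and 0 to 56 when 1 library was left out. The 63 pathway calls became 39 without the lowest 25% of peaks and 171, 107, 107 and 133 in the same order of scalings and edgeR, 32 with DESeq2, 158 with the replicate block and 1 to 189 without 1 library. In NeuN+ nuclei the 23 member calls became 10 with quantiles, 2 with DESeq2 and 0 to 14 without 1 library, and the 139 pathway calls 63, 8 and 0 to 57. In Olig2+ nuclei DESeq2 gave 5 member calls in place of 15 and 26 pathway calls in place of 85, and leaving out 1 library gave 8 to 18 and 38 to 83. The replicate block, in which numbers do not pair animals, gave 26 and 18 member calls in NeuN+ and Olig2+ nuclei and lost none of the 57 called peaks. Of these, 0 of 19, 0 of 23 and 5 of 15 were called in every alternative that gave a value.

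Differences in response numbered 3 (shared-peak sum) and 2 (quantiles) for microglia against NeuN+, 5 (quantiles) and 1 to 4 (1 library left out) for microglia against Olig2+, and 2 and 2 for NeuN+ against Olig2+ nuclei. In WT, 25% overlap gave 14 differing peaks both for microglia against NeuN+ and for NeuN+ against Olig2+ nuclei, with more peaks tested.

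Signs changed in values that were not called and at 1 called peak, the Smad2 peak at 24 bp, NeuN+ nuclei (0.0717 with quantiles). The Tgfbr1 peak at -64 bp, microglia, gave -0.381 with quantiles. The Tgfbr2 peak at 57 bp, microglia, gave 0.000507, 0.00924 and 0.0319 with median of ratios, edgeR and DESeq2, and -0.269 to 0.157 without 1 library (0.0827 without SgshKO replicate 1). The Smad2 peak at 170 bp, microglia, gave -0.0307 with tags in peaks. The Smad3 peak at -233 bp, microglia, gave -0.205 with tags in peaks, -0.606 with quantiles and -0.0906 to 0.0954 without 1 library (-0.0243 without SgshKO replicate 1). The Tgfb2 peak at 696 bp, microglia, gave -0.0871 with tags in peaks and -0.220 to 0.448 without 1 library (-0.131 without WT replicate 2). The Tgfb1 peak at 190 bp, NeuN+ nuclei, gave -0.685 to 0.137 without 1 library. The Smad7 peak at -130 bp, NeuN+ nuclei, gave 0.0192 and the Ski peak at -683 bp, NeuN+ nuclei, 0.0793 with tags in peaks, and the latter 0.348 with quantiles. The Smad4 peak at 289 bp, Olig2+ nuclei, gave 0.134 with edgeR and -0.963 to 0.719 without 1 library (0.107 without WT replicate 2). The Smad2 peak at 116456 bp, Olig2+ nuclei, gave -0.241 to 0.347 without 1 library (-0.0108 without SgshKO replicate 1). The cause was not tested.

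With 2 libraries per group and 1 read worth 0.511 to 0.928 tags, low peaks were measured with few reads, and an uncalled peak is not shown to be unchanged.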
